A study of Mus musculus with 6 samples.

Results

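The canonical histone genes and the linker histone genes were examined for accessible chromatin in long-term haematopoietic stem cells of aged and young mice. Members were taken by name from a RefSeq gene table on GRCm38.p6: the genes of the Hist1, Hist2, Hist3 and Hist4 clusters, under current or older symbols, and the H1 linker histone and H2A pseudogene loci that lie elsewhere. This gave 76 of the 49939 genes in the table, of which 71 are annotated as protein coding and 5 as pseudogenes (H2bu1-ps, H2ac14, H2ac5-ps, H2af-ps2 and H1f11-ps). Hist1 on chromosome 13 holds 56 of them, Hist2 on chromosome 3 holds 10, Hist3 on chromosome 11 holds 3 and Hist4 on chromosome 6 holds 1, with 6 outside the clusters. By type, 11 encode or resemble linker histone H1, 21 H2A, 19 H2B, 12 H3 and 13 H4.

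Replication-dependent histone genes supply the H2A, H2B, H3 and H4 proteins that wrap newly copied DNA into nucleosomes, and the linker histones H1 that bind the DNA between them. They are short genes without introns, they are expressed mainly while DNA is replicated, and their messages end in a stem-loop in place of a poly(A) tail. Many H2A and H2B genes lie head to head and share a promoter, and long-term haematopoietic stem cells, which sustain blood formation, are mostly out of the cell cycle.

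The data were ATAC-seq peak lists, in which a transposase cuts and tags accessible DNA. There were 3 aged and 3 young C57BL/6 samples, each with its own list. Both ages were sorted from bone marrow as lineage-negative, Kit+, Sca1+, Flk2-, Cd34- cells and were kept overnight at 3% oxygen. Neither age in weeks nor sex is labelled, and nothing says that the samples are separate animals. Every p-value therefore reflects the spread among these samples, and that spread could be technical.

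Distinct peaks numbered 244697, 129142 and 129953 in aged replicates 1 to 3, against 263958, 254876 and 110601 in young replicates 1 to 3. The sources used here give no read number for any list. The lists differed in strength as well as in length: a -log10 q of 5 or more was reached by 15881, 31728 and 6006 peaks in the aged lists, against 13660, 224 and 31222 in the young lists. Young replicate 2 stood apart, with many peaks and few strong ones, and aged replicate 3 had fewer strong peaks than the other aged lists. Of 10 stem-cell markers 8 had a peak in every list, among them Kit, Meis1, Mecom and Ctnnal1, against 3 of 6 B cell, 0 of 6 T and NK cell, 2 of 7 myeloid, 2 of 6 erythroid and 4 of 6 endothelial and stromal markers. Each of the 6 T and NK cell markers had a peak in 4 or 5 lists. Of the markers of other cells Ctsg of neutrophil precursors and the globin gene Hba-a1 had no peak in any list.

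A gene counted as called in a list if a peak overlapped the gene or the 1 kb on either side of it. By this rule the histone genes were open in most lists at both ages: 44 of 76 (57.9%) were called in all 6 lists, 11 in 5 lists, 6 in 4, 9 in 1 to 3 and 6 in none. Among all genes, 35.6% were called in all 6 lists and 17.5% in none. Histone genes are short, with a median length of 495 bp against 5954 bp for all genes, and a short gene has less room for a peak. Of the 71 protein-coding members 41 (57.7%) were called in all 6 lists, close to the 61.7% of all protein-coding genes. Among genes of at most 5 kb, 41 of 72 members (56.9%) were called in all 6 lists, against 8.48% of all such genes, and 38 of 67 protein-coding members (56.7%) against 20.2% of such protein-coding genes. With peaks of q at most 0.05 alone, 26 of 76 members (34.2%) had a call in each list, and 25.1% of all genes did. A cluster packs short genes together, so 1 peak often served several of these calls.

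List by list, the aged samples called 61, 64 and 52 histone genes and the young samples 65, 51 and 62. The shares of all genes called were 64%, 54% and 51% in the aged lists, against 65%, 59% and 53% in the young lists. The aged lists averaged 59.0 ± 6.24 histone genes (SD, n = 3) and the young lists 59.3 ± 7.37 (SD, n = 3), a difference of -0.33 genes that is far inside the spread of either age. The titles carry the same replicate numbers and the same exp numbers at both ages, and the labels do not explain the exp numbers. A further unexplained number in the titles is shared by both ages for replicate numbers 2 and 3 but differs for number 1. Within a replicate number the sign changed. Called histone genes were 61 aged against 65 young for number 1, 64 against 51 for number 2 and 52 against 62 for number 3. In number 2 the aged list alone called 14 histone genes and the young list alone 1, whereas in number 3 the aged list alone called 0 and the young list alone 10. The low totals belonged to aged replicate 3 and young replicate 2, 1 list of each age.

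Where a histone gene had a peak, the peak was usually among the strongest of its list. Each peak was ranked by the authors' -log10 p within its own list, on a percentile scale where 100 is the strongest, and a gene took its highest-ranked peak. The median percentile of the called histone genes was 97.6, 96.7 and 97.6 in the aged lists and 97.7, 80.3 and 94.2 in the young lists. The same median over all called genes was 90.1, 88.4 and 85.5 in the aged lists and 90.7, 88.8 and 87.3 in the young lists. Histone genes stood above this median in 5 lists and below it in young replicate 2, where many peaks share the same few -log10 p values. At least the 90th percentile was reached by 53, 52 and 44 histone genes in the aged lists, against 56, 23 and 47 in the young lists. As shares of the called histone genes these were 86.9%, 81.2% and 84.6% in the aged lists, against 86.2%, 45.1% and 75.8% in the young lists, and over all called genes 50.7%, 46.2% and 42.5% in the aged lists, against 51.6%, 22.2% and 43.3% in the young lists. By this measure histone genes stood above all genes in each of the 6 lists. Ranks come from lists of different lengths, so they place a gene within a list and show no change between lists.

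**Figure D1:**
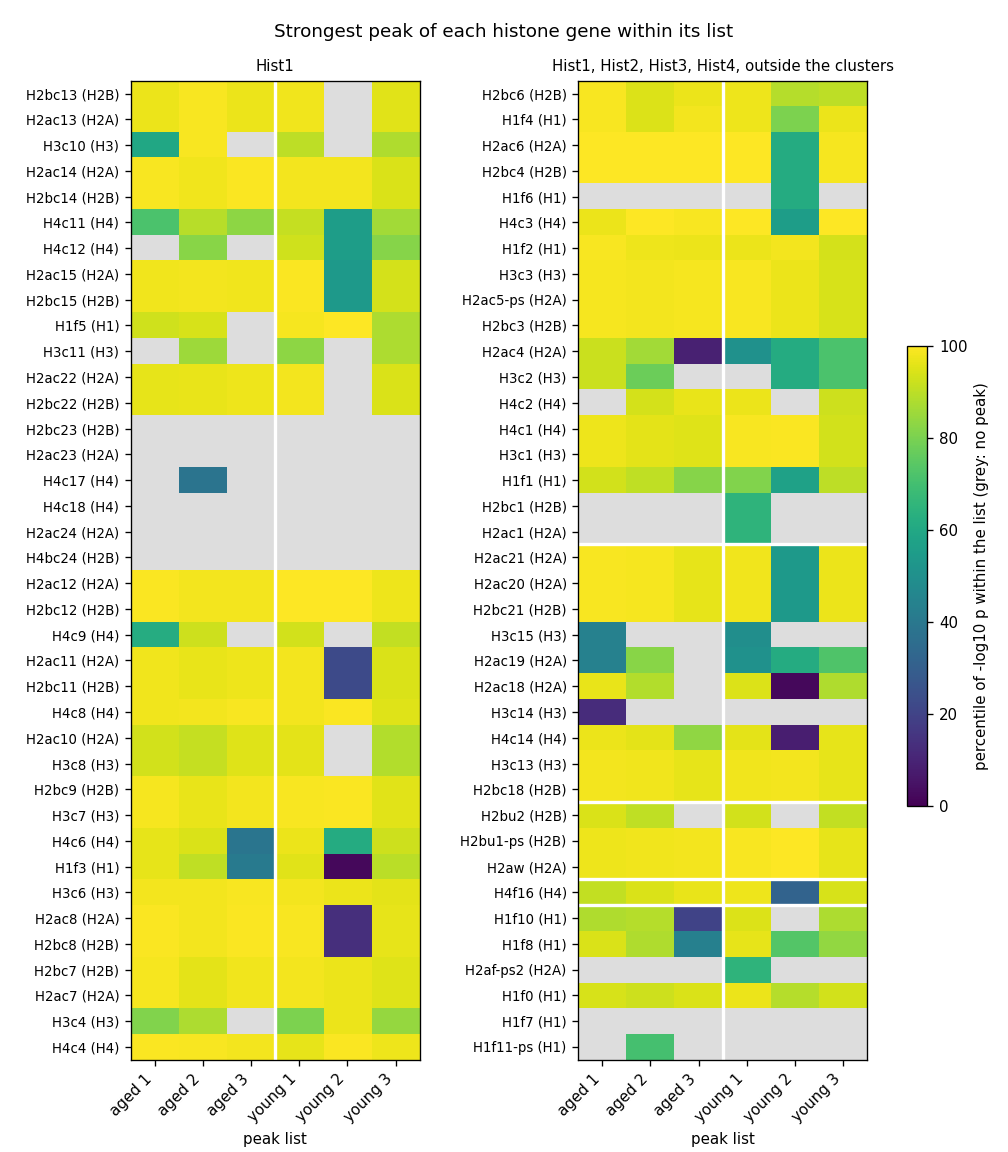
Percentile of the strongest peak of each of the 76 histone genes within each list, aged lists left of young lists, genes in cluster order with white lines between clusters; grey marks no peak. Most rows are at the strong end in 5 lists, the column of young replicate 2 holds more weak values than any other, and a run of 6 Hist1 genes from H2bc23 to H4bc24 is grey but for 1 value of H4c17.

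No histone gene was open in every list of one age and in none of the other. Of the 76, 0 had a peak in every aged list and in no young one, a pattern that 0.152% of all genes showed. The opposite pattern, every young list and no aged one, held for 0 members and for 0.314% of all genes. Calls at one age alone came from single lists: H3c14, H4c17 and H1f11-ps were called in 1 aged and no young list, and H1f6, H2bc1, H2ac1 and H2af-ps2 in 1 young and no aged list. These 3 and 4 members are 3.95% and 5.26% of the 76, against 6.93% of all genes called in at least 1 aged and no young list and 10.2% called in at least 1 young and no aged list. The largest difference in lists was that of H4c12, an H4 gene of Hist1, called in 1 aged list (percentile 82.2 in replicate 2) and in 3 young lists (92.7, 55.6 and 81.7). The exact 2-sided permutation p for its percentile was 0.3, where 0.1 is the smallest that 3 against 3 samples allow. The adjusted p (Benjamini-Hochberg over all 49939 genes) was 1 for every histone gene, and 0 genes of the table had an unadjusted p under 0.05, which this design cannot reach.

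H2ac6 and H2bc4, an H2A and an H2B gene that face each other across 239 bp and share 1 peak, were the only members whose percentiles did not overlap between ages. Of all genes, 1.37% had all aged percentiles above all young ones and 1.79% all below. The shared peak region (mm10, chr13:23683697-23684427) was at percentile 99.94, 99.84 and 99.86 in the aged lists, against 99.83, 61.5 and 98.5 in the young lists. The difference in mean percentile was 13.3 with an exact permutation p of 0.1 and an adjusted p of 1. It rests on young replicate 2: without that list it was 0.73, and the lowest aged value (99.84) lies next to the highest young value (99.83). The authors' fold enrichment of this peak was 16.8, 20.7 and 13.1 in the aged lists, against 14.98, 2.75 and 18.7 in the young lists, and these ranges overlap.

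Calls were lost mainly in 2 lists. Of the 11 histone genes called in 5 lists, 7 were missing from young replicate 2 alone (H1f10, H2bc13, H2ac13, H2ac22, H2bc22, H2ac10 and H3c8) and 4 from aged replicate 3 alone (H2ac19, H2ac18, H1f5 and H3c4). A further 3 were missing from both of these lists and no other (H2bu2, H3c10 and H4c9). Without young replicate 2, 51 histone genes were called in all 5 remaining lists, and without both of these lists 58 were called in all 4. Young replicate 2 called 59% of all genes, against 65% and 53% in young replicates 1 and 3. Its peaks covered 25% of all promoters, against 39.7% and 41.8% in those young lists. In aged replicate 3 the promoter share was 29.8%, against 40% and 41.9% in aged replicates 1 and 2. What set young replicate 2 and aged replicate 3 apart was not tested.

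Peaks of all lists that overlapped were merged to regions, and 97 regions lay at histone genes. All 6 lists called 24 of them (24.7%), against 1.09% of all merged regions of the genome, and 22 were called in 5 lists. The 24 had a median width of 748 bp and 14 of them lay within 1 kb of at least 2 histone genes. Another 34 regions came from a single list; they had a median width of 191 bp, and 13 of them were from young replicate 2 and 0 from young replicate 3. No region of the 97 was shared by the aged lists while absent from the young ones, or the reverse. A region takes in every peak that touches it, so a gene can miss a peak that its region holds. H1f11-ps was called in 1 list for this reason, through the edge of a wider region.

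The head-to-head H2A and H2B genes carried much of the signal. There were 15 such neighbours, 163 to 280 bp apart. In 10 of them both genes were called in all 6 lists and in 2 neither was called in any. In the 13 with any call, both genes had the same strongest peak in every list that called them, so their calls are 1 measurement and not 2. The peak lay at the shared promoter but for H2bc1 and H2ac1, whose single peak was centred 412 bp after the H2bc1 start, and for H2ac20 and H2bc21 in aged replicate 3, where its summit was 1137 bp after the H2ac20 start. By mean percentile over the lists, the strongest was that of H2ac12 and H2bc12 (98.9) in the second block of Hist1. The peak of H2ac6 and H2bc4 ranked higher in every list other than young replicate 2. The region of H2ac12 and H2bc12 (mm10, chr13:22035329-22036108) was at percentile 99.5, 98.3 and 98.4 in the aged lists, against 99.7, 99.9 and 97.6 in the young lists. It was among the 23 members that reached the 90th percentile in young replicate 2 as well. The authors' -log10 p for it was 31.0, 117 and 14.9 in the aged lists, against 33.7, 10.6 and 120 in the young lists, values that also follow the unknown depth of each list.

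The 300-base promoter of H2bc12 is shown because it lies in this region of highest mean percentile. It stands beside those of H4c4, H3c6 and H1f2, which represent the other types open in all 6 lists. That of H2bc1, a testis gene open in none at its promoter, is shown as well. Each runs from 250 bases before to 50 bases after the start, 5′ to 3′ on the gene's strand, from RefSeq on GRCm38.p6. Capitals mark matches, on either strand, to CCAAT, the box bound by the factor NF-Y, to TATAAA, to the octamer ATTTGCAT, bound by Oct1 (Pou2f1), and to GGTCCG, the core of the H4 promoter site bound by Hinfp.
H2bc12: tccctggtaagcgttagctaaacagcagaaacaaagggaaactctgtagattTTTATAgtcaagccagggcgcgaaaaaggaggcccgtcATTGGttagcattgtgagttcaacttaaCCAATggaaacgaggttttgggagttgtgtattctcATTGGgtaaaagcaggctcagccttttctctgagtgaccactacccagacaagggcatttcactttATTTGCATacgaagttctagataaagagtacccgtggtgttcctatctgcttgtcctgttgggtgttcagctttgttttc
H4c4: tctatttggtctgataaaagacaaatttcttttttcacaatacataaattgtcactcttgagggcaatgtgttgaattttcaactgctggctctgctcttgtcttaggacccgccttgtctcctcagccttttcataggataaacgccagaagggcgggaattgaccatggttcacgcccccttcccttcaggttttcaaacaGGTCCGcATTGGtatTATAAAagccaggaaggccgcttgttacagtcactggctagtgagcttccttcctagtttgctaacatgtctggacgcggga
H3c6: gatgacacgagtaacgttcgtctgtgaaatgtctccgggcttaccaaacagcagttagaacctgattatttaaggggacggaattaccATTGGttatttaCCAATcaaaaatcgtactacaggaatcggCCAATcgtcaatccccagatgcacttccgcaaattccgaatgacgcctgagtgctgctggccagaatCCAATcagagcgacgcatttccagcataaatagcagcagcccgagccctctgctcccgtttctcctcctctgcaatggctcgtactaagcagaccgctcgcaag
H1f2: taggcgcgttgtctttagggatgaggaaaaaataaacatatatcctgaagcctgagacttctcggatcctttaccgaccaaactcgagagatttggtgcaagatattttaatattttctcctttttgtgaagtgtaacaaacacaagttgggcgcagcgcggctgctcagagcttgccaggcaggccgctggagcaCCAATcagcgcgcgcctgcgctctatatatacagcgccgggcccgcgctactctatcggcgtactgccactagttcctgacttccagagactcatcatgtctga
H2bc1: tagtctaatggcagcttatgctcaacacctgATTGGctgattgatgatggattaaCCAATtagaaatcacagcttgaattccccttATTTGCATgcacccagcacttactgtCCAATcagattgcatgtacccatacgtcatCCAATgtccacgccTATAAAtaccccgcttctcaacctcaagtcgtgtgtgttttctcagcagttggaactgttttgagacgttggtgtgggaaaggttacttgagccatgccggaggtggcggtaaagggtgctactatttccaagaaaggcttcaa
The positions are chr13:22035571-22035870 on the plus strand for H2bc12, chr13:23581318-23581617 on the plus strand for H4c4, chr13:23562336-23562635 on the minus strand for H3c6, chr13:23738557-23738856 on the plus strand for H1f2 and chr13:23934107-23934406 on the minus strand for H2bc1. Positions of a match are those of its first base relative to the start. H2bc12 holds an octamer at -30 and 3 CCAAT boxes, and its reversed TATAAA is at -198, on the side of H2ac12. H4c4 holds GGTCCG at -47, a reversed CCAAT at -40 and TATAAA at -32. H3c6 holds 4 CCAAT boxes and H1f2 holds 1. H2bc1 holds the same kinds of match as H2bc12, an octamer, TATAAA and 4 CCAAT boxes, yet no list had a peak on it.

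Over the 67 promoters that matched 66 of the histone genes, the motifs followed the histone type. CCAAT was in 82.1% of histone promoters, against 37.4% of all 32851 promoters in the table: in 18 of 18 H2A, 17 of 17 H2B, 10 of 10 H3, 7 of 10 H1 and 3 of 12 H4 promoters. The octamer was in 20.9%, against 1.74% of all promoters, in 7 H2A and 7 H2B promoters and in none of H1, H3 or H4. GGTCCG was also in 20.9%, against 8.25% of all promoters, and 11 of its 14 were among the 12 H4 promoters. TATAAA was in 52.2%, against 13.6% of all promoters. Matches of different motifs overlapped in 1 promoter. Windows of head-to-head genes overlap and share matches, so these promoters are not independent. The median observed over expected CpG ratio was 0.73, against 0.38 for all promoters. Of the 26 histone promoters called in all 6 lists 10 held the octamer, as did 2 of the 10 called in none, which describes the letters and not the binding of a factor.

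At the promoter itself, the types differed in how steadily they were called. A peak covered the promoter in all 6 lists for 10 of 17 H2B, 8 of 18 H2A and 6 of 12 H4 promoters, but for 1 of 10 H3 and 1 of 10 H1 promoters. Together these were 26 of 67 (38.8%), against 17.6% of all promoters, and 10 (14.9%) were called in no list, against 44.1% of all promoters. The aged lists called 47, 52 and 41 of the 67 and the young lists 49, 34 and 53. Of all promoters 40%, 41.9% and 29.8% were called in the aged lists, against 39.7%, 25% and 41.8% in the young lists, with the low values in the same lists, aged replicate 3 and young replicate 2. The H3 promoters varied most between lists, with 7, 8 and 3 of 10 called in the aged lists, against 6, 3 and 8 in the young lists, and the H2B promoters stayed at 14, 14 and 13 of 17 in the aged lists, against 14, 10 and 14 in the young lists. The H1 promoters were called at 5, 5 and 5 of 10 in the aged lists, against 5, 3 and 6 in the young lists. They include those of H1f6, H1f7 and H1f8, linker histones of testis, spermatids and oocytes, called in 1, 0 and 1 lists. A single list without a peak leaves a promoter out of the counts over all 6. The groups hold 10 to 18 promoters, and the types were not tested against each other.

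**Figure D2:**
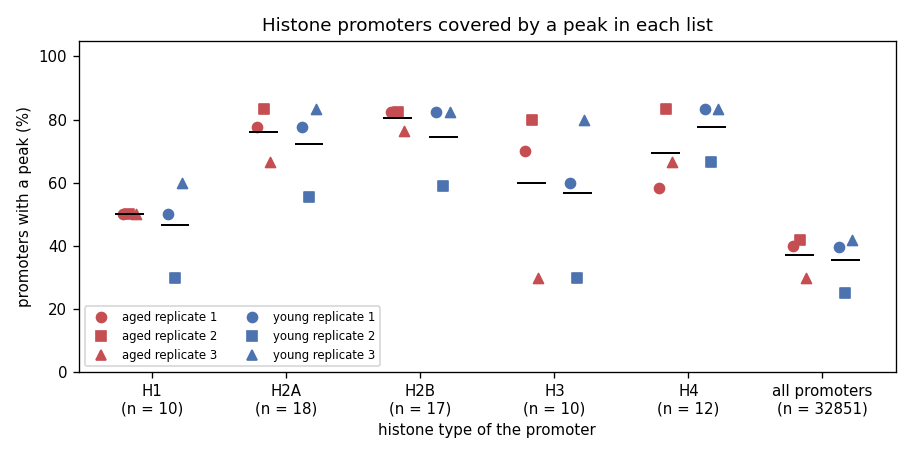
Share of the promoters (250 bases before to 50 after the start) covered by a peak in each list, by histone type and for all promoters of the table, aged lists left of young lists; bars are the mean of 3 lists. H2A and H2B promoters lie above all promoters in every list, the H3 values spread from 30.0 to 80.0% at both ages, and young replicate 2 is the lowest young list in each group.

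Of the H3 genes called in all 6 lists, most owed this to a neighbour. Of the 12 H3 genes 5 were called in all 6 lists, and among those with a promoter entry only H3c6 had it covered in all of them, at percentile 98.2, 98.4 and 98.9 in the aged lists, against 98.3, 97.3 and 96.1 in the young lists. In H3c3, H3c7 and H3c13 the strongest peak in each list was in a region shared with an H2B gene (H2bc3, H2bc9 and H2bc18), and in H3c1 it was in one shared with the H4 gene H4c1. H3c13 also had a region centred -25 bp from its own start, in 5 lists. H3c7 had a second region inside the gene, in 5 lists. A second region overlapped H3c1 in 5 lists and lay within 1 kb of H1f1. That at the start of H3c3 was called in 2. The H3 genes called in fewer lists had regions at their own starts too: those of H3c8 and H3c4 were called in 5 lists, those of H3c10 and H3c2 in 4 and that of H3c11 in 3. H3c7 and H2bc9, with a mean percentile of 97.9, were among the 5 strongest Hist1 values of genes called in all 6 lists. The 5 lowest of these were H2ac4 (61.9), H1f3 (69.2), H4c11 (79.4), H4c6 (80.1) and H1f1 (82.2). H2ac4 was at percentile 92.0, 86.2 and 9.37 in the aged lists, against 50.7, 61.5 and 71.8 in the young lists, so it was weak in lists of both ages.

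Several H4 genes, which encode one and the same protein from separate promoters, stood alone with a peak of their own. H4c4 had a mean percentile of 98.3, with 99.4, 99.0 and 98.2 in the aged lists, against 96.4, 99.4 and 97.6 in the young lists. H4c8, another of the highest, had 97.7, 98.2 and 98.8 in the aged lists, against 98.1, 99.6 and 95.2 in the young lists, and its region also lies within 1 kb of Gm11335 and a tRNA gene. H4c3 reached 97.2, 99.9 and 98.9 in the aged lists, against 99.98, 55.6 and 99.6 in the young lists, so it was near the top in 5 lists and in the middle of young replicate 2. The summit of the strongest peak lay close to the start at H4 genes, with a median of 7 bp in the aged lists and -2 bp in the young lists, where a negative value is upstream.

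At H2A genes the median summit lay -70 bp from the start in the aged lists and -67 bp in the young lists, at H2B genes -108 and -65 bp, and at H3 genes -35 and -34 bp. H1 genes differed. Their median was 944 bp in the aged lists and 886 bp in the young lists, downstream of the start, and only 30.4% of the aged and 29.2% of the young summits lay within the promoter window, against 100% and 91.9% at H2B genes. These are medians over gene and list, and neighbouring genes share summits. The H1 values include the longer genes H1f0, H1f8 and H1f10 outside the clusters.

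**Figure D3:**
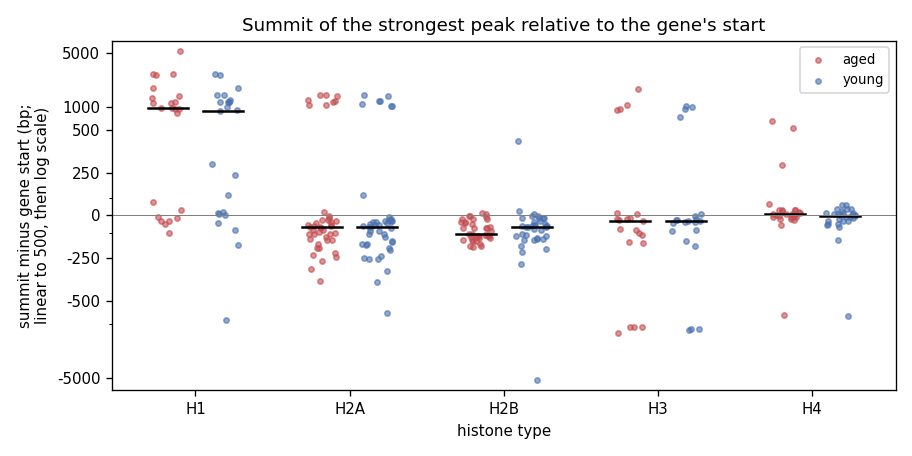
Distance of the summit of the strongest peak from the start of the gene, in bp, negative upstream, for every gene and list with a call, by histone type; aged lists left of young lists, bars mark the median. The H2A, H2B, H3 and H4 medians lie between -108 and 7 bp, whereas many H1 points lie near 1000 bp downstream.

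At the linker histone genes of Hist1 the strongest summit was not always downstream. In the aged lists it lay near the start at H1f1 and H1f3, past the end at H1f5 and at either place at H1f2 and H1f4. In the young lists H1f3 too had it past the end, in replicates 1 and 3. H1f2 had a peak region centred 126 bp after its start in all 6 lists, at percentile 97.0, 97.4 and 67.4 in the aged lists, against 93.7, 98.2 and 93.4 in the young lists. A second region, centred 1114 bp after the start and past the end of the gene, was at 98.9, 94.8 and 97.2 in the aged lists and at 97.3, none and 91.7 in the young lists. H1f3, H1f4 and H1f5 likewise had a region past the gene's end, centred 1177, 1178 and 1194 bp from the start. That of H1f4 was called in all 6 lists, but it also covers a promoter of the H2B gene H2bc6, so it cannot be assigned to H1f4 alone. Those of H1f3 and H1f5 were called in 5. At H1f5 it was the main signal, at percentile 92.97 and 93.8 and uncalled in the aged lists, against 98.8, 99.7 and 87.6 in the young lists, and its start had a peak in 2 lists. H1f1 had no such region: its regions were centred -18 and -1090 bp from the start, each in 5 lists. H1f6, the testis linker histone, was called in young replicate 2 alone.

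Hist1 falls into 4 blocks when genes more than 100 kb apart are separated. The blocks hold 19, 5, 30 and 2 genes over 122, 8.54, 233 and 1.19 kb, in the order of the chromosome. In the third block, 24 of 30 genes were called in all 6 lists and 0 in none, and in the second 4 of 5 were called in all 6. In the first block 5 of 19 were called in all 6 and 5 in none. The fourth consists of H2bc1 and H2ac1, the testis H2B and H2A genes, whose only call was a peak at percentile 65.0 in young replicate 1. Histone genes with 1 kb on each side cover 7.55% of the Hist1 span, and they held 19 of the 26 regions of the span that all 6 lists called. The other 7 lay at Zfp184, Prss16, Abt1 and 4 tRNA genes. None of the 75 vomeronasal receptor genes (Vmn1r family) inside the span was called in all 6 lists, and 42 were called in none.

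**Figure D4:**
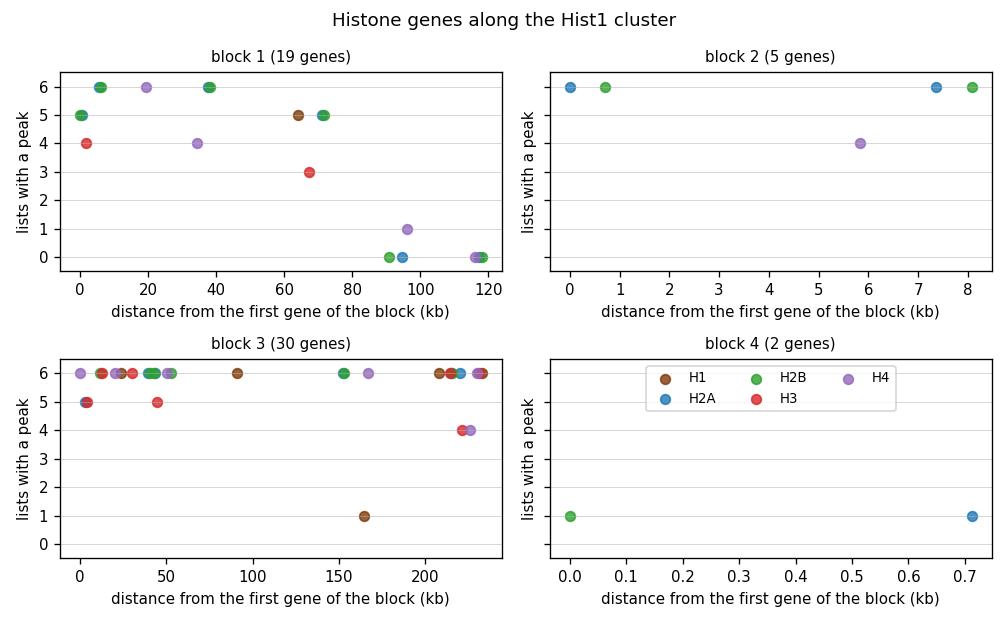
Number of the 6 lists with a peak at each Hist1 gene, by its distance in kb from the first gene of its block; colours mark the histone type. The genes of the third block lie mostly at 6 lists, with H1f6 at 1, and the last 6 genes of the first block lie at 0 or 1.

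The uncalled end of the first block holds near-identical copies. H2bc23, H2ac23, H4c18, H2ac24 and H4bc24 had no peak in any list, and H4c17 a single weak one past its end in aged replicate 2 (percentile 38.4). H4bc24 is the table's symbol for the H2B gene once called Hist1h2br. Stretches of 50 bases that occur in more than 1 histone promoter cover 300 of the 300 promoter bases of H2bc23 and of H4bc24, which are identical, 285 of H4c17 and of H4c18, 267 of H2ac23 and 233 of H2ac24. The copied bases of H2ac23 and H2ac24 are those where their windows overlap the windows of H2bc23 and H4bc24, so they are the same copied DNA. The promoters of H2bc23 and of both H4 genes are shown to make the copying visible. In H2bc23 capitals mark the motifs as above, and in H4c17 and H4c18 they mark bases that differ, or have no partner, when 1 sequence is shifted by 1 base.
H2bc23: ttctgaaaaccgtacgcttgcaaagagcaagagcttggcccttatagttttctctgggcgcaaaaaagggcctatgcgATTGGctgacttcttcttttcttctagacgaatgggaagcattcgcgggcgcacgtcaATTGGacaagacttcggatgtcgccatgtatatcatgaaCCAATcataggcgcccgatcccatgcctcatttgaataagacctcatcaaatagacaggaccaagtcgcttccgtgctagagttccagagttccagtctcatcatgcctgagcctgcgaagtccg
H4c17: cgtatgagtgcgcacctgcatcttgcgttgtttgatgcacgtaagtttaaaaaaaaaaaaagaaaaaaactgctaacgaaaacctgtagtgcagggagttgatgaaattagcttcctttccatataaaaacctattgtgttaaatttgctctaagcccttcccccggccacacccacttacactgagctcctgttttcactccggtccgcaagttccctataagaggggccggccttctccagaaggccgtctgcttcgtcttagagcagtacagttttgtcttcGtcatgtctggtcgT
H4c18: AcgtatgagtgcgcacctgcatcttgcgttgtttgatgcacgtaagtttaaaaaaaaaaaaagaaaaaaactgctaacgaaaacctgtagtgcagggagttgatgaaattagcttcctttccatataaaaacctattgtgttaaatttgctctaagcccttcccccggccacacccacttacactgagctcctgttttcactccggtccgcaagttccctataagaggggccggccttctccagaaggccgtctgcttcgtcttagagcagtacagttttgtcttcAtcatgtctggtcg
H2bc23 lies at chr13:21810150-21810449 on the minus strand, H4c17 at chr13:21811496-21811795 on the plus strand and H4c18 at chr13:21832148-21832447 on the minus strand. The H4 promoters match in 298 of the 299 bases compared, and their starts are 20451 bp apart on opposite strands. A read that falls wholly in such a stretch has no single place, and the sources used here do not say how the authors' pipeline treated it. The calls of these genes are therefore uncertain.

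Copied promoters were also counted as a set. Of the 10 histone promoters with at least 200 copied bases 0 were called in all 6 lists and 7 in none, whereas of the 55 with no copied base 26 were called in all 6 and 3 in none. The 10 include the genes at the uncalled end of the first block, so this count is not separate from the description above. Windows of head-to-head genes among them overlap, so the 10 are not all separate sequences. Of the others, the promoter of H3c14 was called in 0 lists, that of H3c15 in 1, that of H2ac19 in 4 and that of H2ac18 in 5. Whether the copying had a part in the missing peaks was not tested. The other such pairs are H3c14 with H3c15 (284 copied bases each) and H2ac18 with H2ac19 (219 each), in Hist2. H3c14 was called in aged replicate 1 alone, H3c15 in aged replicate 1 and young replicate 1. H2ac18 was at percentile 96.7 and 88.5 and uncalled in the aged lists, against 94.6, 1.97 and 88.1 in the young lists, and H2ac19 at 44.1 and 82.2 and uncalled in the aged lists, against 50.8, 61.5 and 72.5 in the young lists, where the peak of aged replicate 1 lay past the gene's end. So copied promoters were called in part. H4c11 and H4c12 share 127 bases, and their calls carry the same doubt.

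The rest of Hist2 was open. H2bc18 and H3c13, an H2B and an H3 gene, shared a region at percentile 98.2, 98.0 and 96.4 in the aged lists, against 97.7, 98.2 and 96.4 in the young lists. H2ac21, H2ac20 and H2bc21 shared another (mm10, chr3:96220614-96221349), at 99.1, 98.6 and 70.0 in the aged lists, against 97.8, 53.8 and 96.9 in the young lists. In aged replicate 3 a second region near the same genes (mm10, chr3:96219598-96220112) ranked higher, at 96.2. The H4 gene H4c14 was called in all 6 lists but weakly, and through another region, in young replicate 2, with 96.9, 95.9 and 83.3 in the aged lists, against 95.9, 8.54 and 96.2 in the young lists. In Hist3, H2aw and the pseudogene H2bu1-ps shared a region at 97.4, 97.9 and 98.1 in the aged lists, against 99.1, 99.9 and 96.4 in the young lists, which is also within 1 kb of Trim17. H2bu2, the other H2B gene there, was at 94.3 and 90.3 and uncalled in the aged lists, against 93.1, none and 90.9 in the young lists. H4f16, the H4 gene of Hist4, was at 91.0, 94.4 and 96.7 in the aged lists, against 97.6, 31.9 and 93.9 in the young lists.

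Outside the clusters the linker histones followed no common course. H1f0, the linker histone typical of differentiated and resting cells, was called in all 6 lists, through a region centred 286 bp after its start, at 88.7, 87.7 and 70.2 in the aged lists, against 96.5, 88.8 and 88.9 in the young lists. Its strongest peak in the 5 lists other than young replicate 2 lay past the gene's end and within 1 kb of Gcat, at 94.1, 92.3 and 94.3 in the aged lists, against 97.2 and 93.03 in young replicates 1 and 3. H1f8, the oocyte linker histone, was also called in all 6, through peaks inside its 5312 bp in 5 lists and through a peak centred -174 bp from its start in young replicate 2. Its most frequent region, centred 1668 bp after the start, was in 5 lists. H1f10, a linker histone expressed outside S phase, was at 88.1, 88.7 and 20.01 in the aged lists, against 94.9, none and 87.5 in the young lists. H1f7, the spermatid linker histone, had no peak in any list. H1f11-ps had 1 in aged replicate 2 (70.7) and H2af-ps2 1 in young replicate 1 (65.0).

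Genes that act on the histone genes were open throughout at both ages. All 11 regulators listed, all 11 genes for the processing of histone messages and all 17 histone chaperones were called in all 6 lists, and 11 of 12 replication-independent variants, the exception being H1f10. Of all protein-coding genes 61.7% were called in all 6 lists, and of all genes 35.6%. The highest mean percentiles among the regulators were those of Nfyb (99.5), a subunit of NF-Y, Npat (99.4), the coactivator of histone genes at the start of S phase, Pou2f1 (99.3), which binds the octamer, and Casp8ap2 (99.3). Lsm10 (99.4), of the U7 particle that cuts histone messages, led the processing genes before Sympk (96.3), Eri1 (95.8) and Zfp473 (94.9). Among the chaperones Daxx (99.6), Ssrp1 (99.2), Nap1l4 (98.9) and Rbbp4 (98.9) ranked highest, and among the variants H2afv (99.6), Cenpa (99.4), H2afx (98.7) and H3f3a (97.7). The means lean on young replicate 2, where Hinfp and the chaperone Asf1a were both at 55.6. Hinfp was at 99.99, 99.86 and 99.91 in the aged lists, against 99.5 and 99.3 in young replicates 1 and 3. Asf1a was at 99.8, 99.7 and 99.2 in the aged lists, against 99.97 and 99.9 in those young lists. The genes of these lists are mostly longer than histone genes, and no list was tested against the others.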

How the data were processed

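ATAC-seq peak lists of 3 aged and 3 young samples were used, grouped by their titles. Per the submitters' processing notes reads were placed on mm10, and Bowtie2, Picard, SAMtools and MACS2 are named. Their versions and settings, any transposase shift and the handling of reads with several positions are not given in the sources used here.

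Each deposited list gives, per peak and in the layout MACS2 writes, the summit's offset, the fold enrichment, -log10 p and -log10 q values and a score. As deposited, the score is 10 times the -log10 p capped at 1000 and was not used. The deposited -log10 p ranked peaks within a list, with ties averaged. The deposited -log10 q served as a filter in an alternative, and the authors' fold, a ratio over that list's own background, as another way to rank. All peaks had a p of at most 0.01, so weak peaks are included. All of these depend on the read depth of the list, which is unknown.

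Rows with the same interval were merged to distinct peaks. Calls needed an overlap of 1 bp. Genes and promoters came from RefSeq tables on GRCm38.p6, the assembly mm10 names, without UTRs or a genome. Lists without a call were set to 0 in percentile means. Exact 2-sided permutation tests over samples were run on all genes with Benjamini-Hochberg adjustment. Python 3.11.15, pandas 2.3.3, NumPy 2.4.6 and Matplotlib 3.10.9 were used, and the calling and the test were tested on simulated data. The members and gene lists were chosen with earlier results of these data known. Named genes were all members outside Hist1; in Hist1 the H1 genes, genes without a call, genes differing by at least 2 lists between ages, genes with percentiles that do not overlap between ages, and the 5 highest and 5 lowest mean percentiles among genes called in all 6 lists (ties among head-to-head genes included); and up to 4 per further list. H3c6, H4c3, H4c17, Hinfp, Asf1a, the H3 genes beside H3c6 and genes named for a missing list were chosen after their values were seen. Alternatives were the gene body alone, 2 kb, a q of at most 0.05, ranking by fold, leaving out lists and a replicate block.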

Additional observations from a re-analysis of the deposited data

How the results depend on the processing

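The counts of histone genes called in every list of one age and none of the other were 0 in each direction with the gene body alone, 2 kb, q of at most 0.05 and the 300-base promoter; leaving out 1 list gave 0 to 1 for the young direction, where the 1 is H4c12 without aged replicate 2. The 44 genes called in all 6 lists became 30 with the gene body alone (39.5% against 32.2% of all genes), 48 with 2 kb (63.2% against 38.02%), 26 with q of at most 0.05 (34.2% against 25.1%) and 26 at the promoter (38.8% of promoters against 17.6%), an alternative added after seeing the data, as was leaving out aged replicate 3 and young replicate 2 together (58). Leaving out 1 list gave 44 to 51. The 6 genes called in no list became 10 with the gene body alone, 11 with q of at most 0.05 and 10 at the promoter, and 6 to 9 without 1 list. The mean difference in genes called per list was -0.33, 3.33 with the gene body alone, 4.33 with q of at most 0.05, 1 at the promoter and -4.5 to 3.17 without 1 list, so its sign is not settled. The difference in median percentile, 6.59, was 3.57 with the gene body alone, 8.92 with 2 kb and 1.01 with q of at most 0.05. It was 1.45 when ranked by fold and 1.38 to 10.1 without 1 list, the 1.38 being without young replicate 2. With a replicate block the difference in genes called stayed at -0.33, as it must with 1 list of each age per replicate number, so this alternative tests nothing. The labels do not say whether same-numbered samples were paired. Deviations of same-numbered samples correlated at 0.03, -0.20 and -0.17, and aged replicate 2 was closest to young replicate 3 (0.26). With 3 samples per age these values cannot settle the pairing. Beyond the construction of each alternative, causes were not tested. Depth is unknown, so a missing peak does not show closed chromatin.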
